A study of Mus musculus with 5 samples.

Results

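The genes described here are the cytosolic ribosomal protein genes of the mouse, which encode the proteins of the ribosome outside mitochondria. They were taken by symbol (Rpl or Rps followed by a number and at most a final a, x or l, with Rplp0, Rplp1, Rplp2 and Rpsa) and by a protein-coding biotype. The rule found 80 of the 55401 genes in the deposited table, 49 of the large and 31 of the small subunit. They were measured by RNA-seq in wild-type (WT) mouse BMSCs, which the labels call bone mesenchymal stem cells of marrow origin. These are plastic-adherent stromal cells, here cultured for 72 h. A vacuum pump held a continuous negative pressure of -80, -120, -160 or -200 mmHg for 48 h. A further culture stood at 0 mmHg and is called the control. Each condition had 1 library, so no difference has a replicate check, no test across conditions was possible and no p-value is given. All 4 pressure libraries are set against the same control library.

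A ribosome has a small subunit, which binds the mRNA and reads its codons, and a large subunit, which joins amino acids and lets the new chain out through a tunnel. Cells make the proteins of both subunits in matched amounts, and growing cells spend much of their transcription on them. In mammals their mRNAs begin with a run of pyrimidines right after the cap, the terminal oligopyrimidine (TOP) motif, through which mTOR and the RNA-binding protein Larp1 control how strongly they are translated. Loss of 1 copy of several of these genes causes Diamond-Blackfan anaemia in humans, a failure of red cell production in the marrow.

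The start regions of members that the results below turn on are printed to show this motif beside the genes at either end of the changes. Each line has 15 bases before and 15 bases after the annotated start on the gene's strand (RefSeq, build GRCm38.p6), 5′ to 3′. Capitals mark the longest run of at least 8 C or T that reaches into the span from 10 bases before to 30 bases after the start. Rpl35, Rpl35a, Rpl38 and Rps27 lay among the larger decreases, and Rps6 in between. Rps10, Rplp2 and Rpl13a were among the smallest.
Rpl35, chr2:39005117-39005146 (-): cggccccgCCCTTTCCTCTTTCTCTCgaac
Rpl35a, chr16:33056467-33056496 (+): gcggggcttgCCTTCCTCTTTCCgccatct
Rpl38, chr11:114668565-114668594 (+): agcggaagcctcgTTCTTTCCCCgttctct
Rps27, chr3:90213634-90213663 (-): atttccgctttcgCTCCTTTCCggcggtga
Rps6, chr4:86857353-86857382 (-): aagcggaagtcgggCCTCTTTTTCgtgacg
Rps10, chr17:27635230-27635259 (-): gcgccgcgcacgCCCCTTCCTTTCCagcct
Rplp2, chr7:141447636-141447665 (+): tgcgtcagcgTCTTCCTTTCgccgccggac
Rpl13a, chr7:45128731-45128760 (-): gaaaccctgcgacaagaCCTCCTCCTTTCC
All 8 printed genes were chosen to show a run, and they include both large and small changes. RefSeq promoters were at hand for 60 members, and 39 of these had such a run (65.0%), against 22.2% of all 27025 genes with a promoter sequence. The other 20 members had no entry. The letters CTCTTTC occurred in 21.7% of members and 4.60% of all genes on the gene's strand within the 300 promoter bases, and their reverse complement in 6.67% and 4.91%. Over the 4 pressures the median of the members' mean log2 change was -0.86 for the 39 measured genes with a run and -0.81 for the 18 measured genes without one. Some runs begin well after the start, 21 bases after it in Rpl26 and 29 in Rpl9. The split by run is therefore not a split by TOP motif. A match is a description of the letters and not a site.

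A second set of letters was common upstream. CCGGAAG, searched on both strands, occurred in 41.7% of members and 9.93% of all genes, and ACTTCCG, which overlaps it in part, in 35.0% and 7.20%. These letters are the core that transcription factors of the ETS family bind. In the 100 bases before the start, either motif on either strand occurred in 23.3% of members and 6.58% of all genes. Members with small mean changes had them there too, such as Rps10 (-0.23) and Rpl15 (-0.54). Changes with and without these letters were not compared. These 100 bases are printed for the members among the 10 largest decreases that have such letters there, Rpl41, Rpl37a and Rpl38. Capitals mark the matches of either motif on either strand.
Rpl41, chr10:128549169-128549268 (-): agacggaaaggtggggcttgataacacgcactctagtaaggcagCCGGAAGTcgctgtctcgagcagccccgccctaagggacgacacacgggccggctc
Rpl37a, chr1:72711160-72711259 (+): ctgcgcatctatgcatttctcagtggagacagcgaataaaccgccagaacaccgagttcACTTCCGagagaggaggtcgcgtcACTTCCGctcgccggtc
Rpl38, chr11:114668480-114668579 (+): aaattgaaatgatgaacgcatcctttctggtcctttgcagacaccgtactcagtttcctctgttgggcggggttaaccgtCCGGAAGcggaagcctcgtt

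Levels are FPKM, fragments divided by exon length in kilobases and by library size, as deposited by the authors. A gene counted as measured when its mean over the 5 libraries was at least 1 FPKM, which 12113 genes met. That held for 77 of the 80 members, 46 of the large and all 31 of the small subunit. The other 3 are paralogs known from other tissues. Rpl3l, the striated muscle paralog of Rpl3, had 8 reads in the control and 5, 0, 6 and 6 reads at -80, -120, -160 and -200 mmHg. Rpl10l and Rpl39l, the testis paralogs of Rpl10 and Rpl39, had 0 reads in all 5 libraries. A count of 0 allows up to 3 reads per library. Whole reads could be recovered from FPKM, with library totals of 16600622 to 17012586 reads at -80, -120 and -160 mmHg, 18056998 at -200 mmHg and 18398911 in the control. Intervals given below cover counting error only.

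The libraries were checked against their label. Of 15 stromal markers 13 were measured, and 2 of these were at least 2-fold lower at all 4 pressures, Vim (-2.15 to -1.99 on the log2(FPKM + 1) scale) and Ly6a (-1.48 to -1.07). On average 5 of the 13 were above the control, among them Thy1 (0.97 to 1.48, past 2-fold at 3 pressures, with 51 to 91 reads under pressure, against 1 in the control), Itgb1 (0.57 to 0.72) and Pdgfra (0.51 to 0.68). The summed level of the 15 was 2707 to 2927 FPKM under pressure, against 4836 FPKM in the control. Of 20 haematopoietic markers 5 were measured, of which Cd14, Cd68 and Lyz2 rose and Ppbp fell at all 4 pressures. The summed level of the 20 was 113 to 123 FPKM under pressure, against 73.4 FPKM in the control, and its part in the results below was not tested. Ptprc, the pan-leukocyte antigen, stood at 0 in 4 libraries and 0.006 FPKM at -200 mmHg, and Itgam and Hba-a1 stood at 0 in all 5. Of 7 endothelial markers 1, Plvap, was measured, and it rose at all 4 pressures, with 2.70 to 4.18 FPKM under pressure, against 0.711 FPKM in the control. The summed level of the 7 was 3.45 to 4.99 FPKM under pressure, against 1.15 FPKM in the control, and its part in the results was not tested either. The control library held 2493 reads of 4 Y-linked genes (Ddx3y, Eif2s3y, Uty and Kdm5d), and the pressure libraries held 0. The origin of the control cells and the pressure therefore cannot be told apart, and "rose" and "fell" below describe only the difference from that library. In bulk RNA, fewer cells of a type and less RNA per cell cannot be told apart either.

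Ribosomal protein genes took a smaller share of the reads in every pressure library than in the control. At 0 mmHg it was 8.58% of all reads (exact Clopper-Pearson 95% interval 8.57 to 8.59). It was 4.47% (4.46 to 4.48), 4.86% (4.85 to 4.87), 4.66% (4.65 to 4.67) and 5.20% (5.19 to 5.21) in the -80, -120, -160 and -200 mmHg libraries. That is 0.520, 0.567, 0.543 and 0.606 of the control's share at -80, -120, -160 and -200 mmHg. The large subunit genes took 2.72% to 3.16% of reads under pressure, against 5.11% in the control, and the small subunit genes 1.75% to 2.04%, against 3.47%. The ratio of large to small subunit reads was 1.55 to 1.56 under pressure, against 1.47 in the control. The median member stood at 259, 284, 275 and 304 FPKM at -80, -120, -160 and -200 mmHg, against 508 FPKM in the control. Among the 100 genes with the highest FPKM, 24 to 27 were members under pressure, against 38 in the control. The plot of read shares and levels shows both subunits.

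**Figure D1:**
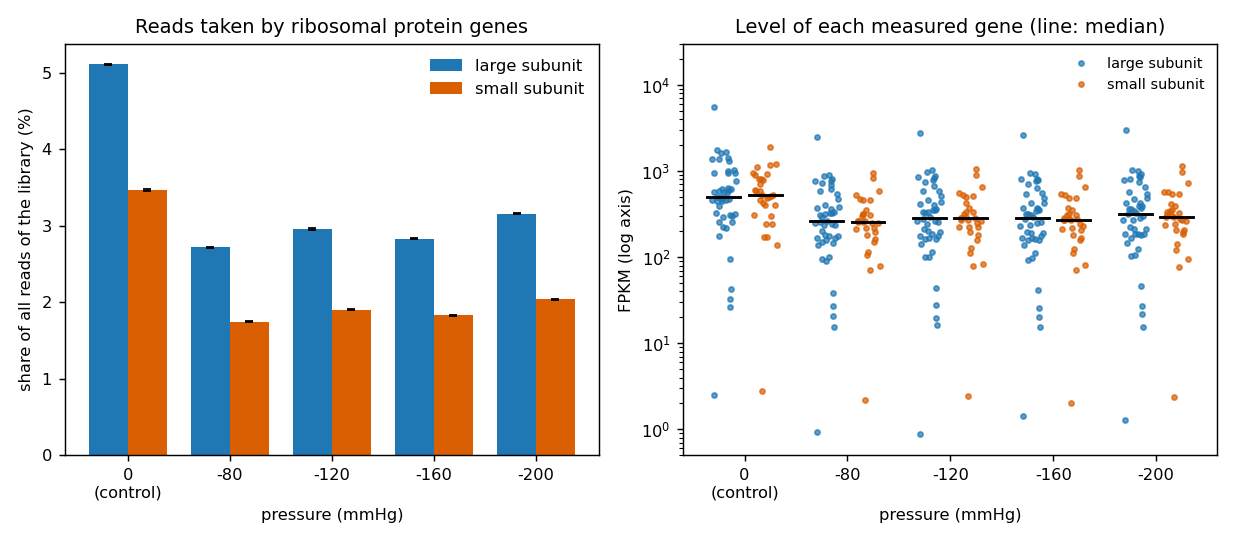
Left, share of all reads of each library (%) taken by large (blue) and small (orange) subunit genes, with exact 95% counting intervals; right, FPKM of each of the 77 measured genes on a log axis, with the median of each subunit as a line, by pressure (mmHg). The control has the highest share in both subunits (5.11% and 3.47%), and among the pressures -200 mmHg has the highest (3.16% and 2.04%).

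The lower level was spread over nearly the whole set rather than carried by a few genes. Changes are differences of log2(FPKM + 1) from the control, a scale that understates changes where values are low. The size rule asks for a change of at least 1, which is 2-fold. At -80 mmHg 34 of 77 members were lower by this rule, against 6.89% of all measured genes. At -120 mmHg 21 were lower (6.45% of all measured genes), at -160 mmHg 22 (6.03%) and at -200 mmHg 14 (6.38%). No member was higher at any pressure, against 10.7%, 8.85%, 9.59% and 9.1% of all measured genes at -80, -120, -160 and -200 mmHg. In all, 14 of the 77 were lower at all 4 pressures, against 4.46% of all measured genes, and 0 were higher at all 4, against 6.49%. The control was the highest of the 5 libraries in 75 of 77 members, against 33.3% of all measured genes. With 1 library a condition these are counts, and no test stands behind them.

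The members' median changes were -0.97, -0.83, -0.89 and -0.74 in the -80, -120, -160 and -200 mmHg libraries. Those of all measured genes were 0.16, 0.14, 0.15 and 0.14. With the centre of all genes set to 0 in each library (trimmed mean), the members' medians became -1.12, -0.97, -1.04 and -0.87, and 22 members were lower at all 4 pressures. With quantile normalization the medians were -0.38, -0.36, -0.37 and -0.30, and 3 members were lower at all 4 pressures. The share of all measured genes was not counted under either scaling. Many members lay close to the threshold. At -80 mmHg Rps15, at -1.001, was the last inside it and Rps2, at -0.996, the first outside, and 21 members lay within 0.1 of it.

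The subunits differed little in the size of the change. The median changes of the 46 large subunit genes were -0.91, -0.82, -0.87 and -0.73 at -80, -120, -160 and -200 mmHg, and those of the 31 small subunit genes -1.01, -0.87, -0.91 and -0.76. Of the large subunit 17, 11, 12 and 9 genes (37.0%, 23.9%, 26.1% and 19.6%) were lower by the size rule at these pressures. Of the small subunit 17, 10, 10 and 5 were (54.8%, 32.3%, 32.3% and 16.1%). The percentage was thus higher in the small subunit except at -200 mmHg. Of all measured genes 6.89%, 6.45%, 6.03% and 6.38% were lower. At all 4 pressures 9 large (19.6%) and 5 small (16.1%) subunit genes were lower, against 4.46% of all measured genes. Averaged over the 4 pressures, the member with the largest decrease was at -1.71, the middle one at -0.86 and the highest at 0.02. Of the 77 members 51 lay within 0.25 of the median, and the SD over members was 0.32, against 0.79 over all measured genes.

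**Figure D2:**
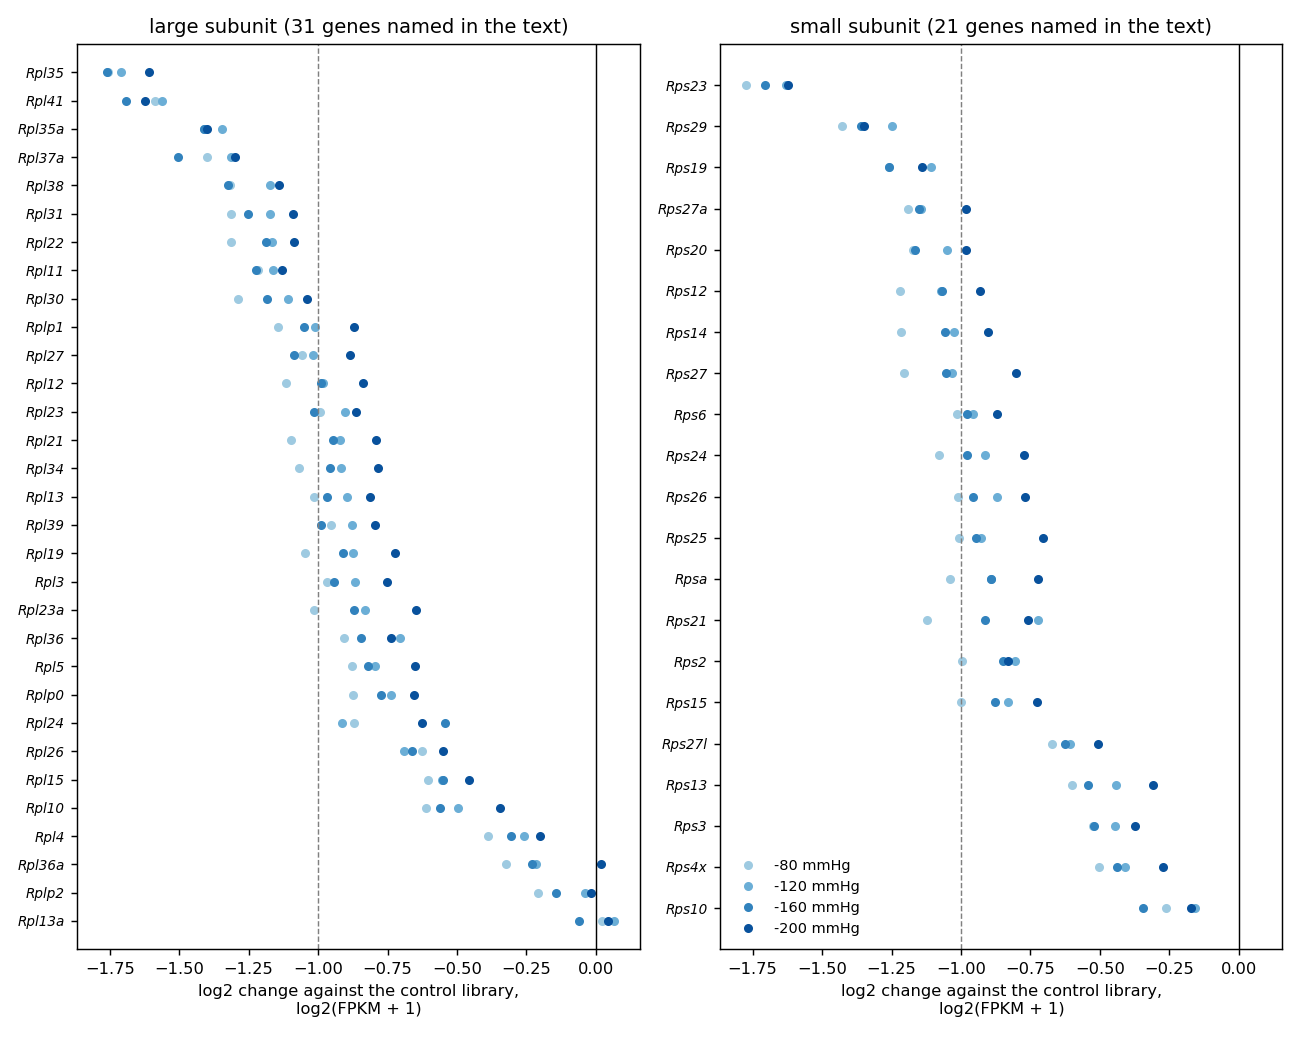
Difference of log2(FPKM + 1) from the control library for the 31 large (left) and 21 small (right) subunit genes named in the text, with 1 point for each pressure (light to dark, -80 to -200 mmHg) and a dashed line at the 2-fold size rule. All points drawn but a few of Rpl13a and Rpl36a lie below 0, and 12 of these 52 genes have all 4 points at or left of the dashed line.

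Rpl35 had the largest mean decrease. It encodes a large subunit protein at the rim of the peptide tunnel. Its level was 571 FPKM at 0 mmHg (control) and 168, 174, 168 and 187 FPKM in the -80, -120, -160 and -200 mmHg libraries. The 4 pressure libraries lay close together and below the control, with changes of -1.76, -1.71, -1.76 and -1.61. Per library total, its reads in the -80 mmHg library came to 0.295 times those of the control (95% interval 0.284 to 0.306). The gene lies on chromosome 2, from 39001580 to 39005624 on the minus strand (GRCm38), and 66.2% of its exon bases overlap exons of other genes, whose reads may be divided in ways that the sources used here do not give.

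Rps23, a protein of the decoding centre that bears on the accuracy of translation, had the largest mean decrease in the small subunit. Its level was 894 FPKM at 0 mmHg (control) and 261, 288, 273 and 290.1 FPKM in the -80, -120, -160 and -200 mmHg libraries. All 4 changes lay between -1.77 and -1.62, and in the -200 mmHg library its reads came to 0.324 times those of the control (95% interval 0.315 to 0.333). It lies on chromosome 13, from 90922958 to 90924950 on the plus strand.

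Rpl41, the shortest ribosomal protein, which sits between the subunits, fell at all 4 pressures as well. Its level was 1760.2 FPKM at 0 mmHg (control) and 585, 595, 544 and 571 FPKM in the -80, -120, -160 and -200 mmHg libraries. The lowest value was at -160 mmHg. In the -200 mmHg library its reads came to 0.324 times those of the control (95% interval 0.318 to 0.331), and the changes were -1.59, -1.56, -1.69 and -1.62. A noncoding gene, Gm10076, which holds 43.9% of the 50-base stretches of Rpl41, had 1920 to 2485 reads under pressure, against 5718 in the control.

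Other large subunit genes among the 10 largest decreases were lower at all 4 pressures. Rpl35a, mutated in some patients with Diamond-Blackfan anaemia, was at a far lower level than the rest, 42.8 FPKM at 0 mmHg (control) and 15.5, 16.2, 15.5 and 15.6 FPKM in the -80, -120, -160 and -200 mmHg libraries. Rpl37a, a zinc-binding protein, stood at 465 FPKM at 0 mmHg (control) and 175, 186, 163 and 188 FPKM in the -80, -120, -160 and -200 mmHg libraries. Rpl38, whose loss in the mouse disturbs the patterning of the axial skeleton, stood at 939 FPKM at 0 mmHg (control) and 376, 416, 374 and 425 FPKM in the -80, -120, -160 and -200 mmHg libraries. In each of these the control lay above all 4 pressure libraries, and the mean changes were -1.39, -1.38 and -1.24. Rpl31, which lies at the tunnel exit, had 452 FPKM at 0 mmHg (control) and 181, 199.7, 189 and 212 FPKM in the -80, -120, -160 and -200 mmHg libraries.

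In the small subunit, Rps29 and Rps19 also fell at all 4 pressures. Rps29, a zinc-binding protein in the subunit head, had 531 FPKM at 0 mmHg (control) and 197, 223, 206 and 208 FPKM in the -80, -120, -160 and -200 mmHg libraries. Rps19, the first gene linked to Diamond-Blackfan anaemia, had 173 FPKM at 0 mmHg (control) and 71.5, 79.5, 71.5 and 77.6 FPKM in the -80, -120, -160 and -200 mmHg libraries.

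Rpl22, Rpl11 and Rpl30 fell at all 4 pressures too. Rpl11 binds Mdm2 in a particle with Rpl5 and ribosomal RNA when ribosome assembly fails. Its level was 323 FPKM at 0 mmHg (control) and 139, 144, 138 and 147 FPKM in the -80, -120, -160 and -200 mmHg libraries. Rpl5, its partner, passed the size rule at no pressure, with 293 FPKM at 0 mmHg (control) and 159, 169, 166 and 186 FPKM in the -80, -120, -160 and -200 mmHg libraries. Both had the control highest, with changes of -1.22, -1.16, -1.22 and -1.13 for Rpl11 and -0.88, -0.79, -0.82 and -0.65 for Rpl5. Rpl30 had 38.5 to 45.9 FPKM under pressure, against 95.5 FPKM in the control.

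A further 7 members were lower by the size rule at -80, -120 and -160 mmHg and not at -200 mmHg. These were Rps27a, which is made as a fusion with ubiquitin, Rps20, Rps12, Rps14, Rps27, Rplp1 and Rpl27. Their changes at -200 mmHg lay between -0.98 (Rps27a and Rps20) and -0.80 (Rps27). Another 14 members passed the rule at 1 pressure, which was -160 mmHg for Rpl23 and -80 mmHg for Rpl12, Rpl13, Rpl19, Rpl21, Rpl23a, Rpl34, Rps6, Rps15, Rps21, Rps24, Rps25, Rps26 and Rpsa. The other 42 measured members passed it at none.

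Rps6 is the small subunit protein phosphorylated in response to mTOR signalling. Its level was 533 FPKM at 0 mmHg (control) and 263, 274, 269.8 and 291 FPKM in the -80, -120, -160 and -200 mmHg libraries. Rpsa, also known as the laminin receptor, is a small subunit protein. It stood at 1208 FPKM at 0 mmHg (control) and 588, 650.3, 651 and 732 FPKM in the -80, -120, -160 and -200 mmHg libraries. Both had changes near the threshold, -1.02, -0.96, -0.98 and -0.87 for Rps6 and -1.04, -0.89, -0.89 and -0.72 for Rpsa, and both had their lowest value at -80 mmHg.

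The 3 stalk proteins, which recruit the elongation factors, did not move alike. Rplp1 had the highest level of all members, 5515 FPKM at 0 mmHg (control) and 2495, 2737, 2660.2 and 3018 FPKM in the -80, -120, -160 and -200 mmHg libraries. Rplp0, the base of the stalk, stood at 1610.4 FPKM at 0 mmHg (control) and 878, 965, 942 and 1024 FPKM in the -80, -120, -160 and -200 mmHg libraries. Rplp2, which pairs with Rplp1, stood at 474 FPKM at 0 mmHg (control) and 409.6, 462, 429 and 468 FPKM in the -80, -120, -160 and -200 mmHg libraries. The control exceeded every pressure library in all 3, but for Rplp2 by little. The changes were -1.14, -1.01, -1.05 and -0.87 for Rplp1, -0.87, -0.74, -0.77 and -0.65 for Rplp0 and -0.21, -0.04, -0.14 and -0.02 for Rplp2. In the -200 mmHg library the reads of Rplp1 came to 0.547 times those of the control (95% interval 0.539 to 0.555), and those of Rplp2 to 0.988 times those of the control (95% interval 0.968 to 1.01). A processed pseudogene of Rplp0, Gm8730, had 10876 to 13689 reads under pressure, against 22512 in the control.

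The other members with the highest mean level were Rps15, Rpl36 and Rps4x. Rps15, of the small subunit head, stood at 1888, 943, 1061, 1028 and 1139.8 FPKM at 0, -80, -120, -160 and -200 mmHg. Rpl36 stood at 1684, 898, 1032, 936 and 1010.1 FPKM in the same order. For both, the control was highest and -80 mmHg lowest. Across members the mean level and the mean change were nearly unrelated (Spearman rho 0.03 over 77 genes of the same 5 libraries, as a description). Mean FPKM, which divides by exon length, had a rho of -0.46 with exon length over these 77 genes. Ranks by reads can therefore differ. In the control Rpsa had 70483 reads and Rplp1 50631.

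The X-linked members are Rpl10, Rpl36a, Rpl39 and Rps4x, and 0 of these 4 passed the size rule at any pressure. Of all measured genes 6.03% to 6.89% were lower and 8.85% to 10.7% higher by pressure. Among only 4 genes a count of 0 lies near those shares. Of the autosomal members 46.6%, 28.8%, 30.1% and 19.2% were lower by it at -80, -120, -160 and -200 mmHg. Rpl10, which joins the large subunit late near its catalytic centre, stood at 946 FPKM at 0 mmHg (control) and 619, 671, 641 and 745 FPKM in the -80, -120, -160 and -200 mmHg libraries. Rps4x stood at 1189 FPKM at 0 mmHg (control) and 839, 895, 878 and 985 FPKM in the -80, -120, -160 and -200 mmHg libraries. Rpl36a stood at 299 FPKM at 0 mmHg (control) and 239, 257, 255 and 303 FPKM in the -80, -120, -160 and -200 mmHg libraries, so its FPKM at -200 mmHg was just above the control. Rpl39, of the tunnel wall, had 389.7 FPKM at 0 mmHg (control) and 201, 211, 196 and 224 FPKM in the -80, -120, -160 and -200 mmHg libraries. The median of the mean change was -0.45 over these 4 genes, against -0.87 over the 73 measured autosomal members. Rpl39 differed from the other X-linked genes. Its changes of -0.95, -0.88, -0.99 and -0.80 fell just short of the size rule, and their mean, -0.90, lay below the autosomal median. The control library is also the one with Y-linked reads, and the part of the cells' origin in this difference was not tested.

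Of the 10 smallest changes 3 were in the genes just named, Rpl10, Rpl36a and Rps4x, and 1 in Rplp2. Rpl13a, a large subunit protein that in human monocytes also silences inflammatory mRNAs when it leaves the ribosome, was the only measured member with a mean change above 0 (0.02, and -0.12 with the trimmed mean). Its level was 26.5 FPKM at 0 mmHg (control) and 26.95, 27.8, 25.4 and 27.4 FPKM in the -80, -120, -160 and -200 mmHg libraries. In the -80 mmHg library its reads came to 1.02 times those of the control (95% interval 0.929 to 1.11), an interval that includes 1. It stood far below the median member in every library, and 35.4% of its exon bases overlap other genes, among them the readthrough gene Gm45713, listed at 0 in all 5 libraries.

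Rps10 also stood low, at 2.82 FPKM at 0 mmHg (control) and 2.18, 2.42, 2.01 and 2.40 FPKM in the -80, -120, -160 and -200 mmHg libraries, from 79 to 100 reads under pressure, against 120 in the control. It overlaps the readthrough gene RPS10-NUDT3 over part of its exons (28.7% of its exon bases overlap other genes). The lowest member was Rpl24, at 2.53 FPKM at 0 mmHg (control) and 0.934, 0.877, 1.43 and 1.29 FPKM in the -80, -120, -160 and -200 mmHg libraries, or 15 to 25 reads under pressure, against 48 in the control. Its exons overlap others over 47.0% of their length, and 81.7% of its 50-base stretches occur elsewhere. For these low members the level may hold only part of the gene's reads.

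Rpl4, whose long loop lines the narrowest point of the tunnel, had a high level and a small change. It stood at 994 FPKM at 0 mmHg (control) and 759.7, 831, 803 and 865 FPKM in the -80, -120, -160 and -200 mmHg libraries. The changes were -0.39, -0.26, -0.31 and -0.20. Rps3, at the channel where mRNA enters, stood at 306 FPKM at 0 mmHg (control) and 213, 225, 213 and 236 FPKM in the -80, -120, -160 and -200 mmHg libraries, and Rps13 had 245 FPKM at 0 mmHg (control) and 161, 179.9, 168 and 198 FPKM in the -80, -120, -160 and -200 mmHg libraries. Rpl15 had 256 FPKM at 0 mmHg (control) and 168, 174, 175 and 186 FPKM in the -80, -120, -160 and -200 mmHg libraries. In Rpl4, Rps3, Rps13 and Rpl15 the control was the highest library and -200 mmHg the next. Rpl3, a protein near the peptidyl transferase centre, lay at the middle of the set with 475 FPKM at 0 mmHg (control) and 242, 260.1, 247 and 282 FPKM in the -80, -120, -160 and -200 mmHg libraries.

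Paralogs within the set and beside it gave pairs with unequal changes. Rpl22, an RNA-binding protein of the large subunit that mice can live without, fell at all 4 pressures, with 226 FPKM at 0 mmHg (control) and 90.4, 100.4, 98.8 and 106 FPKM in the -80, -120, -160 and -200 mmHg libraries. Rpl22l1, its paralog outside the rule, stood at 26.3 FPKM at 0 mmHg (control) and 27.3, 28.3, 27.96 and 29.3 FPKM in the -80, -120, -160 and -200 mmHg libraries. The control was thus far above the pressure libraries for Rpl22, while the changes of Rpl22l1, 0.05, 0.10, 0.09 and 0.15, lay near or below the median of all measured genes (0.14 to 0.16). Rps27 stood at 587 FPKM at 0 mmHg (control) and 254, 287, 283 and 337 FPKM in the -80, -120, -160 and -200 mmHg libraries, and Rps27l, its p53-responsive paralog, at 171 FPKM at 0 mmHg (control) and 107, 112, 111 and 120.1 FPKM in the -80, -120, -160 and -200 mmHg libraries. The changes were -1.20, -1.03, -1.05 and -0.80 for Rps27 and -0.67, -0.61, -0.62 and -0.51 for Rps27l. Rpl36al, a paralog of Rpl36a, was low, at 0.603 FPKM at 0 mmHg (control) and 1.15, 1.07, 1.56 and 1.47 FPKM in the -80, -120, -160 and -200 mmHg libraries, from 24 to 36 reads under pressure, against 15 in the control.

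Rpl26, which binds the mRNA of p53, illustrates the shared sequence in this family. The gene stood at 32.4 FPKM at 0 mmHg (control) and 20.6, 19.7, 20.1 and 21.8 FPKM in the -80, -120, -160 and -200 mmHg libraries, and its processed pseudogene Gm15772, which holds 60.6% of its 50-base stretches, at 1289 FPKM at 0 mmHg (control) and 567, 596, 609 and 680.2 FPKM in the -80, -120, -160 and -200 mmHg libraries. Gm15772 had 4135 to 5380 reads under pressure, against 10389 in the control, and Rpl26 472 to 568, against 860. Most reads of this pair were thus counted for the pseudogene, and both had the control highest.

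**Figure D3:**
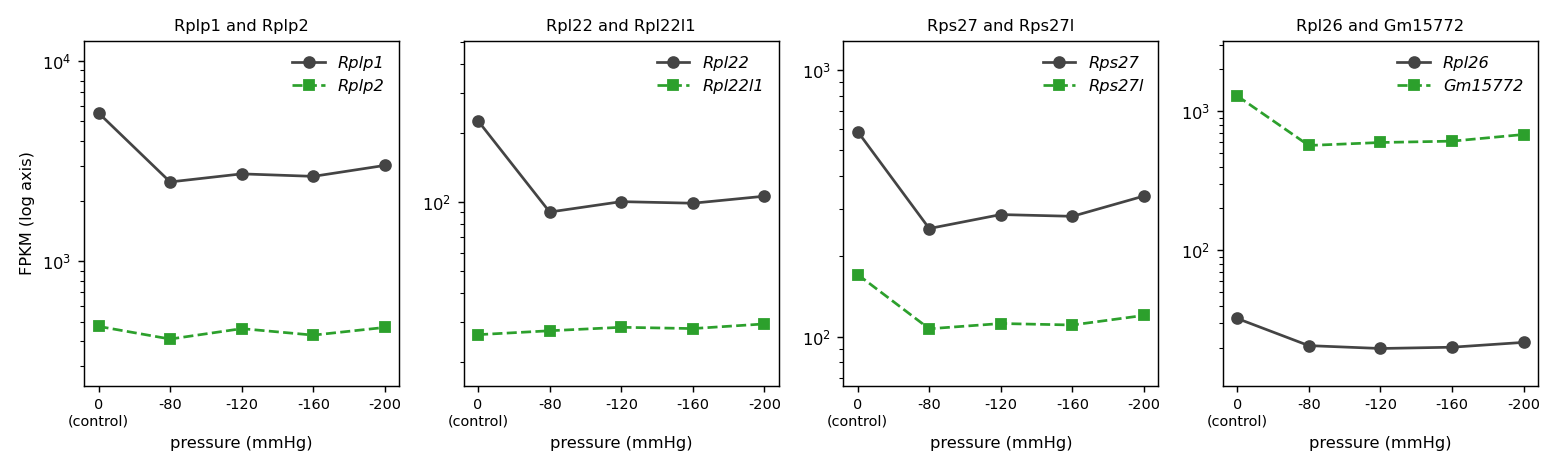
FPKM on a log axis against pressure (mmHg) in 4 pairs, Rplp1 and Rplp2, Rpl22 and Rpl22l1, Rps27 and Rps27l, and Rpl26 with its pseudogene Gm15772, with 1 library at each point. The control stands far above the pressure libraries for Rplp1 (5515 FPKM) and Rpl22 (226 FPKM), and near them for Rplp2 and Rpl22l1.

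Shared sequence did not mark the genes with the larger changes. The 35 measured members with under 50% of their 50-base stretches in another annotated gene had a median mean change of -0.87, and the 42 with at least 50% one of -0.84. The Spearman rho between the shared percentage and the mean change was 0.02 over the 77 genes. Of 1086 annotated pseudogenes that share a 50-base stretch with a member 170 were measured, and their medians were -0.71, -0.68, -0.79 and -0.76 at -80, -120, -160 and -200 mmHg. They took 0.235% to 0.254% of reads under pressure, against 0.442% in the control.

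Many of these genes carry small nucleolar RNAs in their introns, which guide the modification of ribosomal RNA. A snoRNA was annotated inside 29 measured members. Of these, 2 (6.90%, Rpl30 among them) were lower at all 4 pressures, and of the 48 without one 12 (25%) were. The share of all measured genes was 4.46%, and the count of 2 lies near it. The median mean changes were -0.84 and -0.88 in the same order, and many members lay close to the threshold.

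The mRNAs of this family are short, and short transcripts as a class were lower under pressure in these libraries. The principal transcript of the measured members had a median length of 775 nt, against 2892 nt over all measured coding genes. Other coding genes under 1000 nt had median changes of -0.48, -0.38, -0.43 and -0.37 at -80, -120, -160 and -200 mmHg, and those of 1000 nt or more 0.19, 0.18, 0.20 and 0.17. The 53 members under 1000 nt were at -1.001, -0.87, -0.95 and -0.77, and the 24 longer members at -0.88, -0.79, -0.82 and -0.66. Short members and long members thus both lay below other genes of their length class. Over all measured coding genes the Spearman rho between length and mean change was 0.36 (10711 genes), and over the members 0.21 (77 genes).

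Short genes that are also highly expressed were lower as well. The 71 other coding genes under 1000 nt and with a mean of at least 100 FPKM had medians of -0.79, -0.67, -0.76 and -0.61, and 14 of the 71 (19.7%) were lower at all 4 pressures. Of the 53 members under 1000 nt 13 (24.5%) were. Of the 24 longer members 1 was, against 3.80% of other coding genes of 1000 nt or more. With the trend of the change with transcript length removed, the mean over the 4 pressures of the median change was -0.43 for large and -0.47 for small subunit genes, against -0.83 and -0.89 without that step. Then 3 members were lower at all 4 pressures, and the share of all measured genes after that step was not counted. The medians of the short members lay below those of the 71 other short, abundant genes, but the groups were not matched. The members were not held to 100 FPKM, and the 71 include Rps3a1 and Fau, ribosomal protein genes outside the rule. The part of transcript length in the result was not tested.

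**Figure D4:**
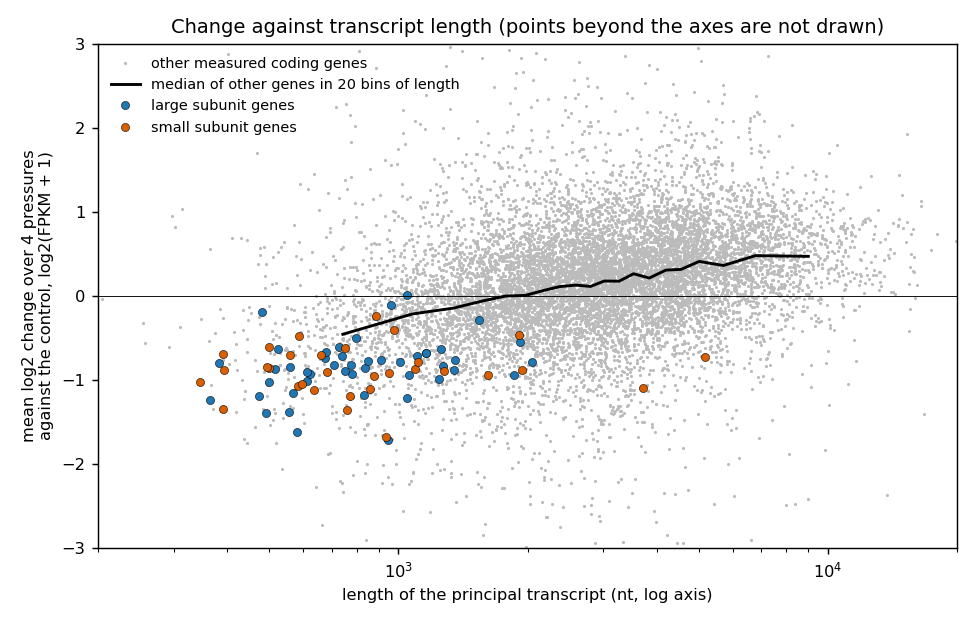
Mean change over the 4 pressures against the control (log2(FPKM + 1), vertical) by length of the principal transcript (nt, log axis) for measured coding genes in grey, with the median of other genes in 20 bins of length as a line and large and small subunit genes in blue and orange. The line climbs with length, and the members, with a median length of 775 nt, lie mostly below it.

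Among the 4 pressures, which can be set against each other without the control, the members moved together by small steps. The value at -200 mmHg was the highest of the 4 in 65 of 77 members, against 23.6% of all measured genes, and the value at -80 mmHg the lowest in 56, against 25.9%. Both held in 51 members, against 10.9%. Other abundant genes shared part of this pattern. Of the 382 other genes of at least 100 FPKM, -200 mmHg was the highest in 176 and -80 mmHg the lowest in 230. The median difference of -200 from -80 mmHg was 0.20 on the log2(FPKM + 1) scale over the members, -0.01 over all measured genes and 0.12 over these 382 genes. With quantile normalization it was 0.074 over the members. The steps were not ordered by pressure. From -80 to -120 mmHg the level was higher in 75 of 77 members (48.6% of all measured genes), at -160 mmHg it was below -120 mmHg in 71 (47.1%), and at -200 mmHg it was above -160 mmHg in 75 (44.1%). At each step from -80 to -200 mmHg 4 of the 77 members were higher, a share near the 5.67% of all measured genes, and 0 were lower at each step, against 6.19%.

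The members' range over the 4 pressures had a median of 0.22, the same as that of all measured genes when rounded. It was narrowest at 0.07 and widest at 0.40, in Rps27, so 0 members had a range of at least 1, against 2.26% of all measured genes. With 1 library a pressure, these steps cannot be told apart from differences between single cultures or libraries. Under quantile normalization 51 members were highest at -200 mmHg, against 25.9% of all measured genes. Lowest at -80 mmHg were 31 members, against 26.0%.

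**Figure D5:**
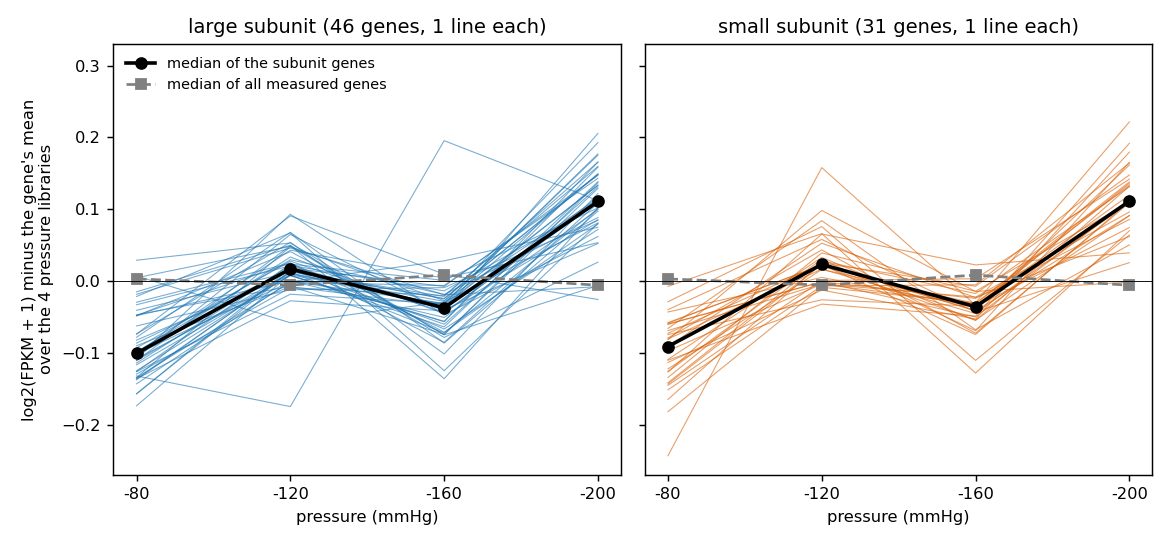
log2(FPKM + 1) of each measured gene minus its own mean over the 4 pressure libraries, with 1 line for each large (left) and small (right) subunit gene, their median in black and the median of all measured genes in grey. The medians of both subunits are lowest at -80 mmHg and highest at -200 mmHg, with a dip at -160 mmHg, and the widest line is Rps27 on the right with a range of 0.40.

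Ribosomal protein genes whose symbols fall outside the rule lay on both sides of the control. Of 8 measured such genes 0 passed the size rule at any pressure. By pressure, 6.03% to 6.89% of all measured genes were lower by this rule. Rps3a1, a small subunit protein, stood at 1503 FPKM at 0 mmHg (control) and 772, 821, 817 and 935 FPKM in the -80, -120, -160 and -200 mmHg libraries. Fau, made as a fusion with a ubiquitin-like protein, stood at 1051 FPKM at 0 mmHg (control) and 764, 818, 757 and 825 FPKM in the -80, -120, -160 and -200 mmHg libraries. Rack1, a scaffold on the small subunit, had 406 FPKM at 0 mmHg (control) and 229, 252, 247 and 272 FPKM in the -80, -120, -160 and -200 mmHg libraries. In these 3 the control was the highest library. Rpl36al, Rpl22l1 and Rpl7l1 had the control as the lowest library instead. Rpl7l1, a paralog of Rpl7, stood at 42.2 FPKM at 0 mmHg (control) and 43.9, 50.7, 52.3 and 52.9 FPKM in the -80, -120, -160 and -200 mmHg libraries. Its changes, 0.06, 0.26, 0.30 and 0.32, lay below the median of all measured genes at -80 mmHg and above it at the other pressures, and those of Rpl36al, 0.43, 0.37, 0.68 and 0.63, lay above it throughout. Mitochondrial ribosomal protein genes, which build a separate ribosome, were lower by less. Of 77 measured, 5 (6.49%) fell at all 4 pressures, against 4.46% of all measured genes. The medians of the 77 were -0.50, -0.42, -0.41 and -0.37.

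Other genes of protein synthesis were counted by the same rule, and few passed it. The lists held 10 elongation factors, 35 initiation factors, 36 proteins of the small subunit processome and snoRNPs, and 15 measured subunits and factors of RNA polymerase I. In each of these, 0 fell and 0 rose at all 4 pressures, against 4.46% and 6.49% of all measured genes. In lists this short, counts of 0 lie near those shares. Of 50 measured subunit assembly factors (of 53 listed) 0 were lower at all 4, and Nsa2, which helps process large subunit RNA, was lower at 3, with 19.6 to 25.03 FPKM under pressure, against 47.5 FPKM in the control. The median changes averaged over the pressures were -0.25 for elongation factors, -0.11 for initiation factors, 0.03 for the processome, -0.13 for assembly factors and -0.03 for RNA polymerase I. These medians lie nearer to that of all genes than the members' do.

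Genes known to share the TOP motif with the members had smaller median changes. Of 19 other TOP mRNAs 0 were lower at all 4 pressures, against 4.46% of all measured genes. The mean of the list's 4 medians was -0.33, or 0.025 with quantile normalization. That list holds 13 genes that other lists also hold. Eef1a1, the elongation factor that brings aminoacyl tRNAs, stood at 3428 FPKM at 0 mmHg (control) and 3692, 3697, 3880.3 and 4286 FPKM in the -80, -120, -160 and -200 mmHg libraries. Eef2, which moves the ribosome along the mRNA, stood at 1139 FPKM at 0 mmHg (control) and 1347, 1404, 1247 and 1207 FPKM in the -80, -120, -160 and -200 mmHg libraries. The changes were 0.11, 0.11, 0.18 and 0.32 for Eef1a1 and 0.24, 0.30, 0.13 and 0.08 for Eef2, on both sides of the median of all measured genes. Tpt1, a TOP mRNA for a growth-related protein, stood at 1200.2 FPKM at 0 mmHg (control) and 1080.4, 1145, 1147 and 1266 FPKM in the -80, -120, -160 and -200 mmHg libraries, with the control inside the pressure values. Btf3, a subunit of a complex on nascent chains, was lower at 3 pressures, with 120.03 to 152 FPKM under pressure, against 298 FPKM in the control.

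Regulators of ribosome production were counted by the same rule. Of 24 measured growth control genes 0 fell and 0 rose at all 4 pressures, against 4.46% and 6.49% of all measured genes. In a list this short, counts of 0 lie near those shares. At -80, -120, -160 and -200 mmHg 2, 1, 2 and 2 were higher, against 10.7%, 8.85%, 9.59% and 9.1% of all measured genes. The mean of the list's 4 medians was 0.25. Mtor, the kinase upstream of TOP mRNAs, was higher by the size rule at 3 pressures, at 4.67 FPKM at 0 mmHg (control) and 12.1, 11.6, 10.6 and 9.84 FPKM in the -80, -120, -160 and -200 mmHg libraries. Deptor, an inhibitor of mTOR, was likewise higher by the size rule at 3 pressures, at 3.50 FPKM at 0 mmHg (control) and 8.36, 7.44, 8.78 and 8.17 FPKM in the -80, -120, -160 and -200 mmHg libraries. Eif4ebp3, which inhibits the cap-binding factor eIF4E, passed the rule at -200 mmHg alone, with 39 reads there, against 7 in the control. Myc, a transcription factor that drives ribosome genes, stood at 31.8 FPKM at 0 mmHg (control) and 50.2, 51.5, 49.2 and 48.8 FPKM in the -80, -120, -160 and -200 mmHg libraries. Larp1 had 18.6 FPKM at 0 mmHg (control) and 24.4, 22.4, 21.3 and 19.5 FPKM in the -80, -120, -160 and -200 mmHg libraries. For Mtor, Deptor, Myc and Larp1 the control had the lowest FPKM of the 5 libraries, as it had in 51.5% of all measured genes. The changes of Larp1, 0.37, 0.25, 0.19 and 0.06, lay on both sides of the median of all measured genes. Of 17 measured genes of the ribosomal stress response 1 rose at all 4 pressures (6.49% of all measured genes) and 0 fell (4.46%). It was Pmaip1, a pro-apoptotic p53 target, with 4.52 to 5.26 FPKM under pressure, against 1.49 FPKM in the control.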

How the data were processed

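RNA-seq of 5 mouse BMSC libraries, 1 per condition, was available as FPKM values per gene that the authors deposited in 1 table. The submitters' processing notes name the rat build rn6 and, as tools, featureCounts 1.5.0-p3, HISAT2 and SAMtools. All 55401 IDs are mouse Ensembl IDs, so GENCODE M21 (GRCm38) gave symbols, biotypes and lengths (54349 IDs matched with their version, 55141 in any). The strand setting is not given in these sources, and nothing says whether libraries came from separate animals. FPKM multiplied by exon length gave whole reads in 98.8% of genes (tolerance 0.001 reads), used for shares, read numbers and 95% intervals. No count model was run, since each condition has 1 library.

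Differences are of log2(FPKM + 1) over the 12113 genes whose mean reached 1 FPKM, and the size rule is a difference of at least 1. Sequence sharing was counted over 50-base stretches of exons. Genes were named by rule as the 10 largest and 10 smallest changes, the 5 highest means, a set fixed by name with paralogs, and in the other lists genes past the size rule at all 4 pressures. A few genes that these rules name are not reported here. Members left in between, pseudogenes, Btf3, Nsa2, Rpl7l1, Deptor, Eif4ebp3 and the markers named were picked with their values known. The members and lists were chosen with earlier results of these data known. The functions were tested on simulated reads. Alternatives were other pseudocounts, filters, scalings, a 1.5-fold rule, removal of length trends, added pseudogene reads and libraries left out. Transcript length, the pseudogenes sharing sequence, and leaving out -80, -120 or -200 mmHg were added after the data were seen. Work was done in Python 3.11.15 (scipy 1.17.1, pandas 2.3.3, numpy 2.4.6, matplotlib 3.10.9).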

Additional observations from a re-analysis of the deposited data

How the results depend on the processing

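No paired analysis was possible because each condition has 1 library and no replicate numbers pair the libraries. The members' medians stayed negative, and 0 members were higher at all 4 pressures, under every alternative run, but their size depended on scaling and length. The count lower at all 4 pressures was 14, and became 22 with the trimmed mean, 3 with quantile normalization, 55 at 1.5-fold and 3 with the transcript length trend removed. For changes against the control, shares of all measured genes were not counted under the alternatives, so these counts have no background beside them. Leaving out 1 pressure library gave 14 to 21, the highest without -200 mmHg. At -80, -120, -160 and -200 mmHg the counts of 34, 21, 22 and 14 became 36, 44 and 22 at the last 3 with the trimmed mean, 5, 4, 6 and 4 with quantile normalization, 70, 65, 66 and 57 at 1.5-fold, and 6, 4, 6 and 4 with the transcript length trend removed. With library totals rescaled without ribosomal protein genes the count at -160 mmHg was 35 and the median at -80 mmHg -1.03.

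The medians at these pressures were -1.12, -0.97, -1.04 and -0.87 with the trimmed mean, -0.38, -0.36, -0.37 and -0.30 with quantile normalization, -0.80, -0.73, -0.77 and -0.64 with the exon length trend removed, and -0.49, -0.45, -0.47 and -0.38 with the transcript length trend removed. For large subunit genes (-0.83) these 4 settings gave -0.98, -0.33, -0.70 and -0.43, and for small subunit genes (-0.89) the trimmed mean, quantile normalization and transcript length gave -1.03, -0.38 and -0.47. Of protein-coding reads the members' share was 8.86% in the control and 4.63%, 5.03%, 4.83% and 5.39% at the pressures, and with named pseudogenes added 8.71%, 4.54%, 4.94%, 4.74% and 5.28%. The other TOP mRNAs turned to a median of 0.025 under quantile normalization, and 1 was lower at all 4 pressures with the trimmed mean. Subunit assembly factors had a median of -0.26 with the trimmed mean, and 1, 1 and 2 genes lower with the trimmed mean, the exon length trend and the transcript length trend. Growth control genes had medians of 0.039 and 0.014 with the 2 length trends removed. Members lowest at -80 mmHg numbered 31 under quantile normalization, against 26.0% of all measured genes. The causes were not tested.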

Other observations

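Symbols of 3 annotated pseudogenes also fit the naming rule, and 1 of them went the other way. Rps4l, a transcribed processed pseudogene of Rps4x on chromosome 6, rose at all 4 pressures, with 14.2 FPKM at 0 mmHg (control) and 47.4, 55.2, 55.1 and 49.7 FPKM in the -80, -120, -160 and -200 mmHg libraries. Its reads numbered 744 to 884 under pressure, against 247 in the control, while Rps4x itself had 839 to 985 FPKM under pressure, against 1189 FPKM in the control. Rpl32l had 1.39 to 3.02 FPKM under pressure, against 3.41 FPKM in the control, and Rpl6l had 2.23 to 4.49 FPKM under pressure, against 6.24 FPKM in the control, from at most 100 reads a library. Across the 68 measured pseudogenes named after a member, 3 (4.41%) were lower and 0 higher at all 4 pressures. The shares of all measured genes were 4.46% and 6.49%. At -80, -120, -160 and -200 mmHg taken singly, 14.7%, 17.6%, 25% and 32.4% of the 68 were lower by the size rule. Of all measured genes 6.89%, 6.45%, 6.03% and 6.38% were. Higher were 2, 1, 0 and 1 of the 68, against 10.7%, 8.85%, 9.59% and 9.1% of all measured genes. The medians of the 68 were -0.64, -0.64, -0.80 and -0.74. Mitochondrially encoded genes, which are read by a separate ribosome, took 2.41% to 2.88% of reads under pressure, against 2.34% in the control.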
